A study of Mus musculus with 12 samples.

Results

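The proximal ascending aorta, the stretch next to the aortic root, was compared with the distal ascending aorta in mice labelled as heterozygous for Notch1. The comparison rested on 6 of the 12 RNA sequencing libraries of the study, 3 proximal and 3 distal. Each of 3 mice of the strain written Notch1.129S6+/- gave 1 library per location at 2 months of age, so libraries with the same number are the same animal. The other 6 libraries came in the same way from 3 wildtype littermates of that age. No treatment was given in the labels. The labels do not describe the mutant allele, and whole pieces of vessel were sequenced, so location differences are not tied to a cell type by the design. The study asked why aortic dilation in these mice was localized to the root. Genes were kept when they reached 1 RPKM (reads scaled to gene length and library size) in at least 3 of the 6 libraries, which left 15713 of 21954 genes. The third highest of a gene's 6 values was 1.001 RPKM for the genes just inside this filter and 0.9999 RPKM for those just outside. Of the genes kept, 140 reached 1 RPKM in all 3 proximal and no distal library, and 49 in all 3 distal and no proximal library. These genes could pass only through the location where they were high. Values below a library's detection threshold, the RPKM that the authors set for 10 reads (0.1467 to 0.1753 in the 6 libraries), stand in the deposited table as 0.1578 RPKM, called the floor here. That threshold is 1 RPKM value per library whatever the gene's length. Values above it can therefore rest on fewer than 10 reads, as few as 5 for Spp1 and 2 for Gm22340.

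The ascending aorta is built by cells of several embryonic sources. The root and the base of the vessel take up cells of the second heart field, and the arch side takes up smooth muscle of the cardiac neural crest, while heart muscle and valve leaflets adjoin the root. Notch receptors are cleaved after ligand binding and their intracellular domain activates genes of the Hes and Hey families together with the DNA-binding protein RBPJ. Heterozygous loss of Notch1 is known for aortic valve and ascending aortic disease.

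Total reads per library were 28521315 to 34073296. The highest value was that of Gm37376, which lies wholly antisense to the long noncoding RNA gene Malat1, at 237043 to 339583 RPKM. Smooth muscle markers were high in all 6 libraries. Acta2, the actin of contractile smooth muscle, stood at 1963, 1812 and 2362 RPKM in proximal libraries 1, 2 and 3 and at 2123, 2620 and 2010 RPKM in distal libraries 1, 2 and 3. Mitochondrially encoded genes took 24.1% to 41.3% of each library's RPKM, and distal library 3, which had the highest share, also had the fewest genes at 1 RPKM or more, 14328 against 15105 to 16048 in the other 5. Notch1, checked first, was higher in the libraries labelled Notch1+/- than in wildtype. It was at 2.20, 1.65 and 1.63 RPKM in the proximal libraries labelled Notch1+/- against 1.11, 1.19 and 1.56 in wildtype. In distal tissue it was at 1.18, 1.85 and 1.51 against 1.12, 0.972 and 0.538 RPKM. All 3 values were above all 3 wildtype values at each location, with an exact 2-sided permutation p of 0.1 for each, the smallest that 3 against 3 allows. The same mice gave both locations, so these p-values are not independent. What this says about the mutant allele, which the labels do not describe, was not tested. Groups are written as libraries labelled Notch1+/-.

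Proximal tissue was marked by 39 genes at higher level and 8 at lower level than distal tissue. The higher genes included secreted cartilage and valve matrix proteins, thrombospondins, heart muscle genes, the cardiac transcription factors Gata4, Tbx20 and Hand2, lymphatic endothelial genes and antigen presentation genes. The lower ones included the potassium channel subunit Abcc9, tissue factor F3, the alpha-1 antitrypsin gene Serpina1b and the guidance factor Sema3c. A gene was called at a limma adjusted p under 0.05, with p-values adjusted over all 15713 genes by the Benjamini-Hochberg method. The calls were 0.248% of the genes tested for higher and 0.0509% for lower, and 1112 genes, 7.08%, had an unadjusted p under 0.05. As the same values chose these genes, it is only a description that all 3 proximal values lay on one side of all 3 distal values in each of the 47. Over all genes 7.33% were higher without overlap and 5.63% lower. Of the called genes, 16 of the 39 higher and 2 of the 8 lower had passed the filter through 1 location alone, which fixed their lack of overlap. The same holds for every such gene named or counted in a list below, called or not.

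**Figure D1:**
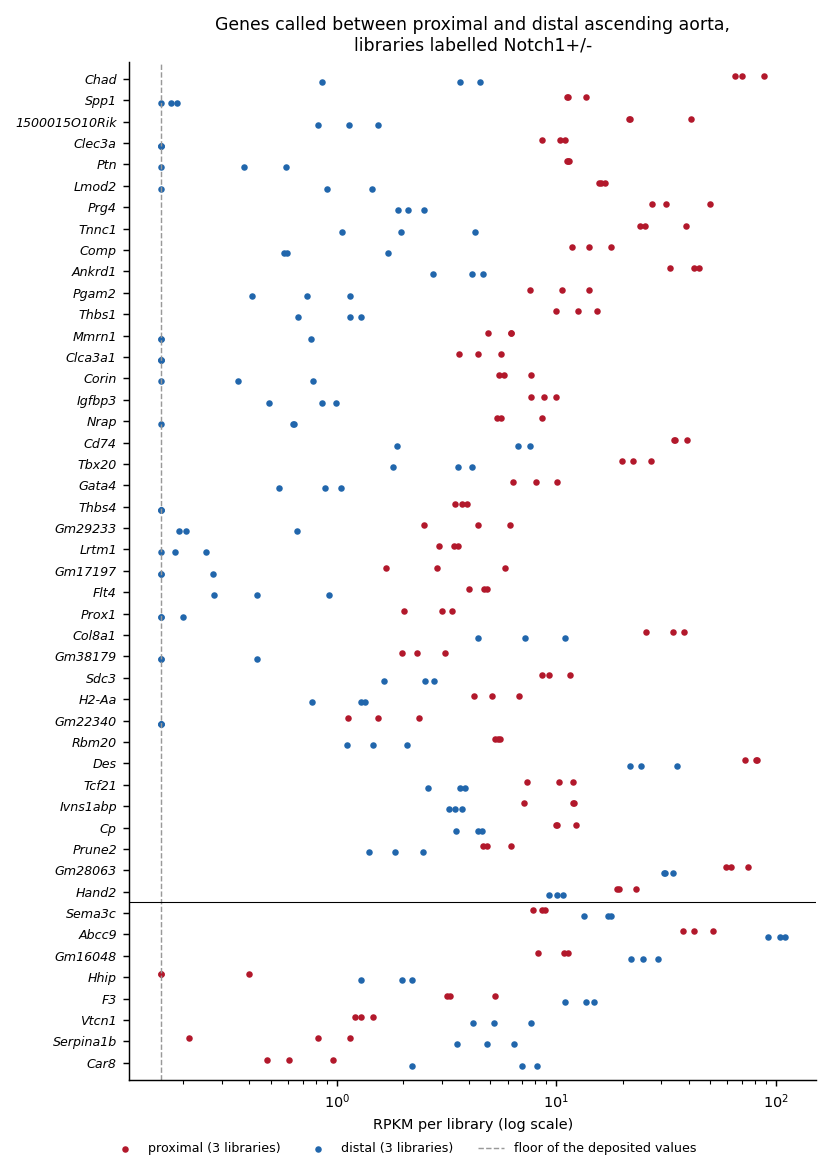
RPKM (log scale) of the 47 called genes in the 3 proximal (red) and 3 distal (blue) libraries labelled Notch1+/-, ordered by fitted log2 difference, with the 8 lower genes under the line. The dashed line is the floor of 0.1578 RPKM that the authors entered for values under a library's detection threshold. In no gene do the red and blue points overlap.

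With the mouse as a block 28 of the 47 calls were kept and 5 other genes were called, 33 in all. A model of these 6 libraries alone, without the wildtype libraries that share the estimate of spread, kept 33 of the 47 and called 14 others. It lost Rbm20, Tcf21, Ivns1abp, Cp, Prune2, Hand2, Gm28063, Gm17197, Gm22340, Sema3c, Gm16048, Hhip, Serpina1b and Car8. Leaving out 1 library left 17, 14 and 21 calls without proximal libraries 1, 2 and 3, and 24, 26 and 16 without distal libraries 1, 2 and 3. Of the 47 genes, 14 were called without each of the 6 libraries and under every other alternative tried. These were Chad, Spp1, 1500015O10Rik, Clec3a, Ptn, Prg4, Ankrd1, Corin, Igfbp3, Tbx20, Gata4, Thbs4, Flt4 and Sdc3. A further 17 lost the call whichever library was left out and are named below as resting on all 6 libraries. The remaining 16 all lost the call without proximal library 2, and each also without at least 1 other library, at adjusted p of up to 0.0858 for Thbs1 and up to 0.215 for Ivns1abp.

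**Figure D2:**
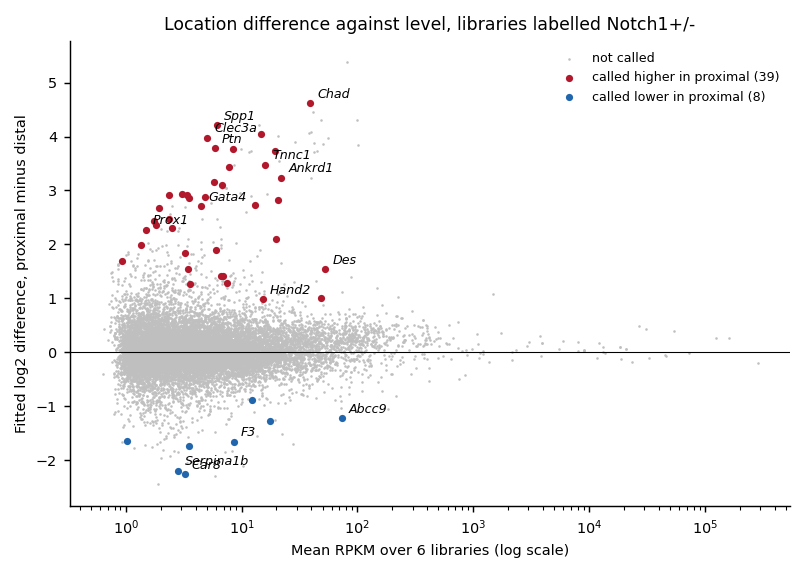
Fitted log2 difference (proximal minus distal) on log2(RPKM + 0.5) against mean RPKM over the 6 libraries (log scale) for 15713 genes. The 39 genes called higher in proximal tissue (red) reach 4.61 and the 8 called lower (blue) reach -2.26, while the median of all genes is 0.02.

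Of the called genes Chad, in the cartilage and valve matrix list, had the largest fitted log2 difference, although the ratio of means was larger for Spp1 and Clec3a. Chad (mm10 chr11:94565047-94569127), which encodes chondroadherin, a leucine-rich protein of cartilage matrix, was at 88.2, 70.2 and 65.3 RPKM in proximal libraries and at 3.65, 4.48 and 0.858 RPKM in distal libraries. The lowest proximal value lay far above the highest distal value. The ratio of means was 24.9, with 74.5 ± 12.1 against 3.00 ± 1.90 RPKM (SD, n = 3), and the log2 difference was 4.61 (SE 0.51, limma adjusted p 0.00208). Clec3a (chr8:114418086-114425846), a C-type lectin of cartilage, was at 8.56, 10.9 and 10.4 RPKM in proximal tissue and at the floor in all 3 distal libraries. It was at least 61.6-fold higher (log2 3.98, SE 0.20, adjusted p 1.74e-06), and since its distal values are 1 replaced number the SE does not measure distal spread. Prg4, which encodes the joint lubricant lubricin, was at 27.2, 31.7 and 50.1 against 2.11, 1.90 and 2.51 RPKM. All proximal values were above 27 RPKM, which made a 16.7-fold difference in means (log2 3.74, SE 0.39, adjusted p 0.00148). Comp, the pentameric matrix protein also known as thrombospondin 5, was at 17.8, 14.02 and 11.8 against 0.577, 1.70 and 0.594 RPKM, a ratio of 15.2 (adjusted p 0.0209). Its call was lost without any 1 library other than distal library 2, with adjusted p up to 0.113.

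The cartilage and valve list held 34 genes, of which 23 were among the deposited genes and 16 were tested. Col2a1 and Col9a1 were among those absent, and Acan and Col11a1 among those that did not reach the filter. In all, 4 of the 16 cartilage and valve genes tested were called higher and none lower, and 9 of 16 did not overlap in the higher direction. Over all genes 0.248% were called higher and 7.33% were higher without overlap. The median log2 difference of the 16 was 0.68, against 0.02 over all genes. Sox9, needed for chondrocytes to form, was at 2.60, 2.68 and 4.64 RPKM against 0.158, 0.939 and 0.460 RPKM. The groups did not overlap, and the log2 difference of 1.93 (SE 0.40) missed the threshold at adjusted p 0.0817. Hapln1, the link protein that ties hyaluronan to proteoglycan, was at 1.86, 2.81 and 1.94 against 0.341, 0.232 and 0.331 RPKM (adjusted p 0.0669). Sox9, Hapln1 and Clec3a had passed the filter through proximal tissue alone. This fixed their lack of overlap and their part in the 9 of 16. Sox9 and Hapln1 were named after their values were seen, as were H2-Ab1, Kcnj8 and Npr1 below.

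Matricellular and growth factor binding proteins formed the next set. Of 23 tested, 5 were called higher, against 0.248% of all genes, and none lower. Without overlap 6 were higher and 2 lower, against 7.33% and 5.63% of all genes. Spp1, Ptn, Thbs4 and Igfbp3 had passed the filter through proximal tissue alone. The set was mixed, with 14 fitted differences above 0 and 9 below, and a median of 0.14. Spp1 (chr5:104435118-104441050), which encodes osteopontin, was at 13.7, 11.3 and 11.2 RPKM in proximal libraries and at 0.158, 0.187 and 0.175 RPKM in distal libraries. It was close to absent from distal tissue, where as few as 5 reads lay behind a value, and at least 69.5-fold higher in proximal tissue (log2 4.21, SE 0.30, adjusted p 4.61e-05). Ptn (chr6:36714929-36810220), the heparin-binding growth factor pleiotrophin, was nearly equal among the proximal libraries, at 11.2, 11.3 and 11.4 RPKM against 0.158, 0.377 and 0.588 RPKM. It was at least 30.2-fold higher (log2 3.79, SE 0.28, adjusted p 4.61e-05). Sdc3, which encodes syndecan 3, a cell surface proteoglycan known to bind pleiotrophin, was at 11.5, 9.29 and 8.62 against 2.52, 2.77 and 1.64 RPKM. Its groups stood apart by a ratio of 4.25 (log2 1.89, SE 0.24, adjusted p 0.00434).

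Among thrombospondins, secreted calcium-binding proteins of the matrix, Thbs1 and Thbs4 were called and Thbs2 and Thbs3 were not. Thbs4 was at 3.47, 3.72 and 3.90 RPKM in proximal tissue and at the floor in all 3 distal libraries, at least 22.9-fold higher (adjusted p 0.00434). Thbs1 was at 15.3, 12.5 and 9.95 against 0.664, 1.29 and 1.15 RPKM. Its lowest proximal value was well above its highest distal one, a ratio of 12.2 (log2 3.10, SE 0.44, adjusted p 0.0116), but the call was lost with the mouse block (adjusted p 0.0647). Igfbp3, which binds insulin-like growth factors, was at 7.63, 9.95 and 8.80 against 0.859, 0.492 and 0.995 RPKM, which made a 11.2-fold difference in means (log2 2.87, SE 0.30, adjusted p 0.00148). The collagen genes gave 1 call among 15 tested, in the higher direction, where 0.248% of all genes were called. Most went the other way, with 13 of 15 fitted differences below 0 and a median of -0.19. Without overlap 5 were lower and 1 was higher, against 5.63% and 7.33% of all genes. Col8a1, a short-chain collagen of vascular and endothelial basement matrix, was at 33.8, 38.1 and 25.6 against 10.99, 7.16 and 4.39 RPKM, a ratio of 4.33 (adjusted p 0.0116). Without proximal library 1 or 2 its adjusted p rose to at most 0.0894. The annotated gene 1500015O10Rik, called Ecrg4 in RefSeq, was at 21.6, 41.1 and 21.4 against 1.13, 0.820 and 1.53 RPKM, which made a 24.1-fold difference in means (log2 4.05, SE 0.47, adjusted p 0.00256).

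Heart muscle genes were higher in proximal libraries as a broad set of which few passed the test. Of 23 sarcomere genes tested, 3 were called higher and none lower, 17 did not overlap in the higher direction and the median log2 difference was 3.24. Of 16 cardiac calcium and energy genes, 1 was called higher, 13 did not overlap and the median was 2.58. Over all genes 0.248% were called higher and 7.33% were higher without overlap. Tnnc1 (chr14:31208312-31211729), the calcium-binding troponin C of heart and slow muscle, was at 23.9, 25.4 and 38.9 RPKM against 4.24, 1.95 and 1.05 RPKM. Proximal library 3 was the highest and distal library 1 was the highest of the distal ones. The ratio was 12.2 (log2 3.48, SE 0.61, adjusted p 0.0383), which rested on all 6 libraries and was lost with the mouse block (adjusted p 0.0746). Lmod2, which lengthens cardiac thin filaments, was at 15.6, 16.6 and 15.9 against 1.44, 0.905 and 0.158 RPKM, at least 19.2-fold higher (adjusted p 0.0381). Ankrd1, a stretch-responsive protein of the sarcomere and nucleus, was at 44.7, 42.4 and 32.9 against 4.12, 4.64 and 2.74 RPKM. It was the only one of these with a call that held without each library, at a ratio of 10.4 (log2 3.24, SE 0.41, adjusted p 0.00434).

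Pgam2, the muscle phosphoglycerate mutase of glycolysis, was at 7.55, 10.6 and 14.1 against 1.15, 0.734 and 0.412 RPKM (adjusted p 0.0441). Nrap, an actin anchoring protein of developing myofibrils, was at 8.57, 5.35 and 5.60 against 0.635, 0.638 and 0.158 RPKM, at least 13.6-fold higher (adjusted p 0.0324). Lmod2, Pgam2 and Nrap rested on all 6 libraries. Corin, the heart protease that activates natriuretic peptides, was at 5.76, 5.50 and 7.62 against 0.777, 0.354 and 0.158 RPKM. Its groups were far apart, at least 14.6-fold (log2 2.91, SE 0.35, adjusted p 0.00365), and the call held without each library. Rbm20, the splicing regulator of titin, was at 5.25, 5.43 and 5.52 against 1.12, 2.08 and 1.47 RPKM (adjusted p 0.0441), a call resting on all 6 libraries. Des, which encodes the intermediate filament desmin of heart and smooth muscle, was at 81.8, 72.5 and 80.7 against 24.4, 35.4 and 21.7 RPKM. It was the only one of 20 contractile smooth muscle genes called, at a ratio of 2.88 (log2 1.54, SE 0.24, adjusted p 0.0225). Leaving out any library but distal library 2 ended its call, with adjusted p up to 0.113.

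The distal libraries differed among themselves in heart muscle genes. The summed RPKM of the 12 cardiomyocyte markers was 511.5, 515.5 and 840.7 in proximal libraries 1, 2 and 3 and 139.5, 32.5 and 24.1 in distal libraries 1, 2 and 3. Of 11 tested, 9 did not overlap in the higher direction, against 7.33% of all genes, and Tnnc1 was called. Markers missing the test had wide spread in the distal group. Tnnt2, cardiac troponin T, was at 63.2, 69.3 and 102 RPKM against 12.4, 2.74 and 0.543 RPKM. Its log2 difference of 4.45 exceeded that of most called genes, but the SE was 0.98 and the adjusted p 0.106. Myh7, the slow myosin heavy chain of ventricle, was at 54.4, 41.8 and 61.0 against 13.4, 1.59 and 0.981 RPKM (adjusted p 0.245). Myl3, a ventricular myosin light chain, was at 27.4, 23.1 and 28.5 against 5.29, 0.271 and 0.158 RPKM (adjusted p 0.125). The atrial light chain gene Myl7 behaved otherwise, at 3.04, 2.48 and 58.3 against 0.638, 2.92 and 4.20 RPKM. Only proximal library 3 was high, and the groups overlapped. Nppa, the atrial natriuretic peptide gene, was at 26.9, 1.35 and 14.1 against 0.435, 0.356 and 1.13 RPKM, so proximal library 2 lay close to the distal range. Not every gene named for heart muscle showed location. Myom1, a protein of the sarcomere M-band, was at 145, 111 and 88.9 against 159, 139 and 86.1 RPKM, and Tpm1, tropomyosin 1, at 261, 244 and 332 against 238, 252 and 218 RPKM, and both overlapped. In bulk tissue, more cells of a type and more RNA per cell cannot be told apart, and the part of adhering heart muscle in these calls was not tested.

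**Figure D3:**
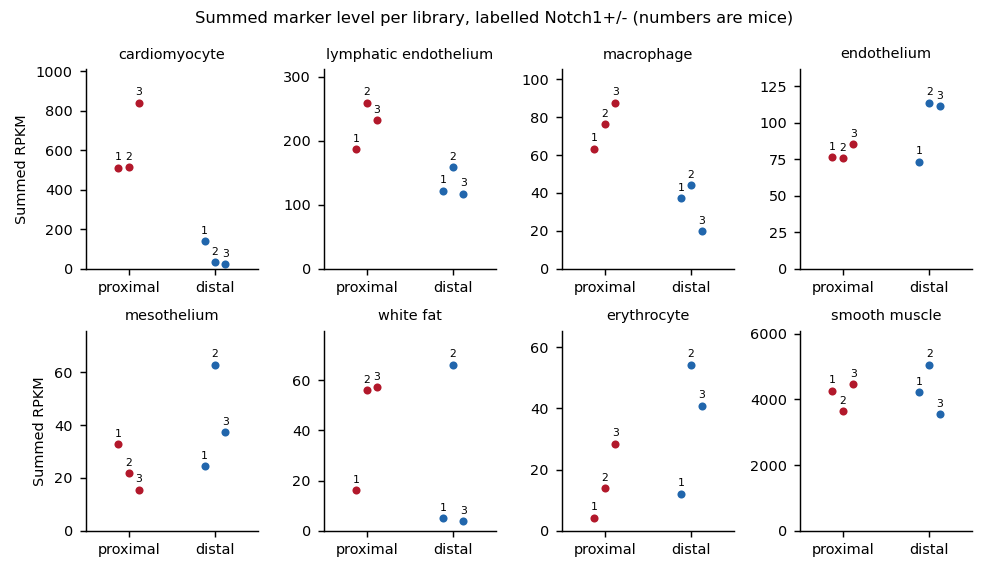
Summed RPKM of 8 marker lists in each of the 6 libraries labelled Notch1+/- (red proximal, blue distal, numbers are mice; each axis starts at 0). Cardiomyocyte sums are 511.5 to 840.7 in proximal and 24.1 to 139.5 in distal libraries, and macrophage sums are 63.4 to 87.7 and 19.9 to 44.1.

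Among cardiac transcription factors 4 of 10 tested were called higher, against 0.248% of all genes, and none lower. The list held 18 genes. Gata5, Tbx5, Tbx1, Tbx2, Tbx3, Hand1, Nkx2-5 and Isl1 did not reach the filter and were not tested. The other 6 had fitted differences below 0, and the median was -0.08. Gata4 (chr14:63198922-63271692), the zinc finger factor of heart and outflow tract, was at 6.33, 8.06 and 10.1 RPKM against 0.882, 1.04 and 0.546 RPKM. The groups did not overlap and differed 9.91-fold (log2 2.71, SE 0.34, adjusted p 0.00434). Gata6, which is closely related to Gata4 and was added after its values were seen, was at 21.5, 17.8 and 19.4 against 20.3, 23.6 and 26.8 RPKM and overlapped. Tbx20, a T-box factor of heart and valve, was at 22.3, 27.0 and 19.9 against 3.56, 4.13 and 1.81 RPKM, which made a 7.29-fold difference in means (log2 2.73, SE 0.31, adjusted p 0.00256). Gm38179, a gene without a name that lies next to Tbx20 on chromosome 9, was also called, at 2.32, 3.09 and 1.99 against 0.435, 0.158 and 0.158 RPKM (adjusted p 0.0209, with the mouse block 0.0515).

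Hand2 (chr8:57320983-57324517), a basic helix-loop-helix factor of second heart field and neural crest derivatives, was present at both locations. It was at 23.1, 19.2 and 18.8 against 10.7, 10.1 and 9.24 RPKM. Its small spread carried the call at a ratio of 2.03 (log2 0.98, SE 0.16, adjusted p 0.0277), which rested on all 6 libraries and was lost with the mouse block (0.085). Gm28063, annotated over the same stretch, was at 74.5, 58.9 and 62.1 against 33.9, 31.3 and 31.0 RPKM. Its call rested on all 6 libraries and was lost with the mouse block (0.0634), and the kit does not mark strand, so reads of overlapping genes cannot be told apart. Tcf21, a factor of epicardial cells and fibroblasts, was at 7.38, 11.9 and 10.3 against 3.65, 3.83 and 2.59 RPKM, a ratio of 2.93 (adjusted p 0.0441). That call too rested on all 6 libraries and was lost with the mouse block (0.134).

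A set of lymphatic endothelial genes was higher in proximal tissue. The list of 12 genes was put together after the values were seen, so its counts describe and do not test. Their summed RPKM was 187, 260 and 232 in proximal and 122, 159 and 118 in distal libraries. Of 11 tested, 4 were called higher, against 0.248% of all genes. These 4 had passed the filter through proximal tissue alone, which fixed their lack of overlap. With them, 8 did not overlap in that direction, against 7.33% of all genes. Another 1 was lower without overlap, against 5.63% of all genes. The latter was Itga9, an integrin chain also made by smooth muscle and the list's most abundant member, at 85.7, 79.2 and 87.1 against 95.8, 112.6 and 102.3 RPKM (adjusted p 0.883). Prox1, the transcription factor that specifies lymphatic endothelium, was at 2.02, 3.35 and 3.01 RPKM against 0.158, 0.198 and 0.158 RPKM, at least 16.3-fold higher (log2 2.27, SE 0.33, adjusted p 0.0116, with the mouse block 0.0546). Flt4, which encodes the receptor VEGFR3, was at 4.68, 3.996 and 4.83 against 0.274, 0.921 and 0.434 RPKM. The ratio was 8.28 (log2 2.31, SE 0.30, adjusted p 0.00585), and the call held without each library. Mmrn1, multimerin 1, was at 4.88, 6.18 and 6.21 against 0.158, 0.767 and 0.158 RPKM (adjusted p 0.026). Clca3a1 was at 5.57, 4.398 and 3.61 RPKM against the floor in all distal libraries, at least 28.0-fold higher (adjusted p 0.0474), a call resting on all 6 libraries.

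Ccl21a, a chemokine gene of lymphatic vessels with near-identical copies, was at 50.4, 135 and 94.7 against 6.37, 15.6 and 1.46 RPKM (adjusted p 0.0986). The split of reads among those copies is uncertain. Of the 9 pan-endothelial markers tested, none was called, and 3 did not overlap in the higher direction, against 7.33% of all genes. Their median log2 difference was -0.15. Their summed RPKM was 75.7 to 85.6 in proximal and 73.3 to 113.7 in distal libraries. Erg, an endothelial transcription factor, was at 22.3, 27.0 and 39.5 against 34.3, 37.4 and 68.8 RPKM and overlapped. Emcn, which encodes endomucin of capillary and venous endothelium, was at 5.26, 3.74 and 2.48 against 0.158, 0.729 and 0.959 RPKM (adjusted p 0.061). Emcn had passed the filter through proximal tissue alone, which fixed its lack of overlap.

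Genes of MHC class II, which present antigen peptides, were higher in proximal tissue. All 4 tested did not overlap in that direction, against 7.33% of all genes. Of the 4, 2 were called, against 0.248% of all genes called higher, and the median log2 difference was 2.01. Cd74, the invariant chain, was at 34.7, 39.3 and 34.3 RPKM against 6.68, 7.61 and 1.88 RPKM, which made a 6.70-fold difference in means (log2 2.82, SE 0.47, adjusted p 0.0304). H2-Aa, an alpha chain, was at 4.20, 6.75 and 5.11 against 1.35, 1.28 and 0.769 RPKM, which made a 4.72-fold difference in means (log2 1.84, SE 0.30, adjusted p 0.0277). Neither call survived the mouse block, at 0.0536 and 0.085, and that of H2-Aa rested on all 6 libraries. H2-Ab1 was at 10.3, 11.4 and 10.8 against 2.20, 3.95 and 1.02 RPKM (adjusted p 0.106). Of the 9 macrophage markers tested none was called, but 6 did not overlap in the higher direction, against the same 7.33% of all genes. Lyz2, lysozyme of macrophages, was at 21.7, 35.4 and 41.3 against 12.5, 14.1 and 5.19 RPKM (adjusted p 0.226). Macrophage markers thus moved with these genes, and their part in the result was not tested.

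Other genes called higher had smaller differences or few reads. Ivns1abp, an actin-binding kelch protein, Cp, the copper oxidase ceruloplasmin, and Prune2 rose by ratios of 2.98, 2.59 and 2.75, with adjusted p of 0.0397, 0.0397 and 0.0441. All 3 calls were lost with the mouse block, at 0.102, 0.127 and 0.0998, and those of Cp and Prune2 rested on all 6 libraries. Lrtm1, a leucine-rich membrane protein, was at 2.93, 3.55 and 3.41 against 0.184, 0.253 and 0.158 RPKM, at least 16.6-fold higher (adjusted p 0.0144). Gm29233 and Gm17197 lie antisense to Thbs1 and Nrap, which share 74.0% and 23.9% of their exon bases. With unstranded libraries these 2 calls cannot be told apart from those of Thbs1 and Nrap, and that of Gm29233 was lost with the mouse block (0.0545). Gm22340 was at 1.12, 1.54 and 2.38 RPKM against the floor, on as few as 2 reads. Its call rested on all 6 libraries and was lost with the mouse block (0.152).

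**Figure D4:**
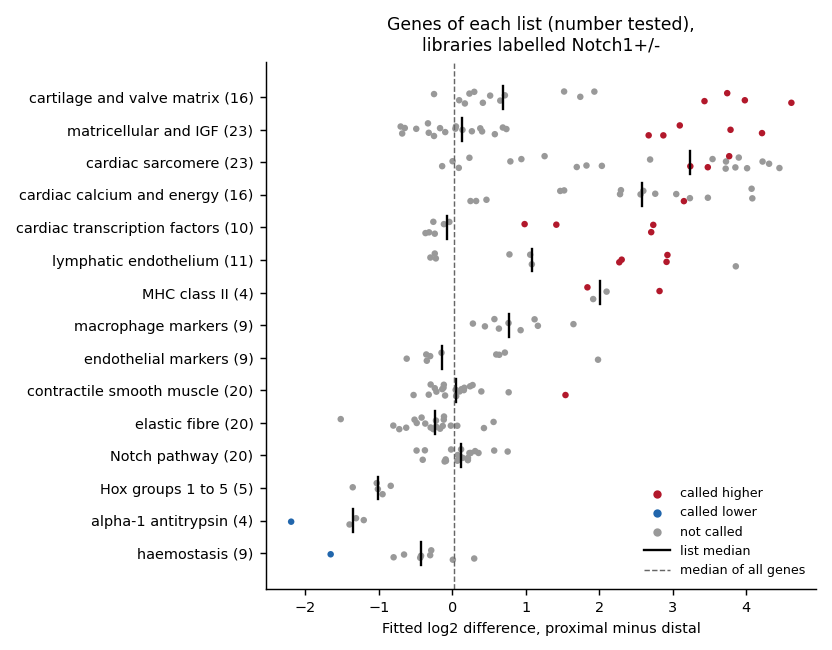
Fitted log2 difference (proximal minus distal) of every tested gene in 15 lists, with the number tested in brackets. Red points are called higher, blue points called lower, grey points not called, black bars are list medians, and the dashed line is the median of all genes at 0.02. List medians run from 3.24 for cardiac sarcomere to -1.36 for alpha-1 antitrypsin.

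Genes lower in proximal tissue were fewer and differed less. Abcc9 (chr6:142587862-142702315), the sulfonylurea receptor subunit of the vascular ATP-sensitive potassium channel, was at 51.4, 37.5 and 42.2 RPKM in proximal libraries and at 104, 92.2 and 110 RPKM in distal libraries. Every distal value was above 92 RPKM, a distal to proximal ratio of 2.34 (log2 -1.22, SE 0.18, adjusted p 0.015). Kcnj8, the pore subunit of the same channel, was at 3.80, 2.53 and 3.97 against 5.03, 5.52 and 3.48 RPKM and overlapped. F3 (chr3:121723537-121735048), tissue factor, which starts coagulation, was at 5.25, 3.29 and 3.17 against 10.99, 14.9 and 13.7 RPKM. It was 3.38-fold higher in distal tissue (log2 -1.66, SE 0.25, adjusted p 0.0171). Both calls were kept with the mouse block, at 0.0437 and 0.0398. Each needed proximal libraries 2 and 3 and distal library 3, and Abcc9 also needed distal library 1 and F3 distal library 2. Their adjusted p then reached at most 0.109 and 0.111.

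Car8, a carbonic anhydrase-related protein, was at 0.482, 0.957 and 0.604 against 2.19, 8.14 and 6.96 RPKM. Distal library 1 was the lowest of the distal group but stood above all proximal ones, and the ratio was 8.46 (log2 -2.26, SE 0.37, adjusted p 0.0271). Vtcn1, an immune checkpoint protein of the B7 family, was at 1.295, 1.205 and 1.47 against 4.19, 7.69 and 5.19 RPKM, 4.30-fold (adjusted p 0.0123, with the mouse block 0.0546). Hhip, which binds and inhibits hedgehog ligands, was at the floor in 2 proximal libraries and at 0.398 in the third, against 1.99, 2.20 and 1.28 RPKM. It was at least 7.47-fold higher in distal tissue (adjusted p 0.0383, with the mouse block 0.143). Sema3c, a secreted semaphorin that guides cardiac neural crest cells, was at 8.90, 7.84 and 8.58 against 13.3, 17.8 and 17.2 RPKM, 1.91-fold (log2 -0.89, SE 0.16, adjusted p 0.0441, with the mouse block 0.144). Serpina1b was at 0.212, 0.824 and 1.14 against 3.52, 6.41 and 4.85 RPKM, 6.78-fold (log2 -2.19, SE 0.39, adjusted p 0.041, with the mouse block 0.0536). It encodes 1 of the near-identical alpha-1 antitrypsins, among which the split of reads is uncertain. All 4 of these genes tested were lower without overlap, against 5.63% of all genes. Serpina1a at 0.489, 0.8625 and 1.3 against 1.38, 3.47 and 3.49 RPKM was not called (adjusted p 0.361). Gm16048 shares 84.3% of its exon bases with Npr1, the receptor of atrial natriuretic peptide, on the other strand. Npr1 itself was at 9.71, 6.09 and 8.86 against 17.8, 18.3 and 11.8 RPKM (adjusted p 0.234). The call of Gm16048 was lost with the mouse block (0.0545). The calls of Hhip, Sema3c, Serpina1b and Gm16048 rested on all 6 libraries.

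Promoter windows from RefSeq (GRCm38.p6, 250 bases before to 50 after the start, the build mm10) matched 35 of the 47 called genes, 29 higher and 6 lower. Of the windows of the genes called lower, 3 of 6 held TGACTCA, the AP-1 site, on either strand, against 5.2% of all 32851 windows and 1 of 35 windows of the genes called higher. These 3 are shown because they are the windows of that count, with the match in capitals, each written along the gene's own strand.
F3 (chr3:121723287-121723586, plus strand): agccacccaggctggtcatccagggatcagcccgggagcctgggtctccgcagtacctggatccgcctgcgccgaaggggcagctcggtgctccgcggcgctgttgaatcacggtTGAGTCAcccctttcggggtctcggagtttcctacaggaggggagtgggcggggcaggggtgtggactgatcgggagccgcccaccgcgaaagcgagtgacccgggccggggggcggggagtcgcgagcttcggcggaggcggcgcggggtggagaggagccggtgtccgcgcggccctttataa
Vtcn1 (chr3:100825209-100825508, plus strand): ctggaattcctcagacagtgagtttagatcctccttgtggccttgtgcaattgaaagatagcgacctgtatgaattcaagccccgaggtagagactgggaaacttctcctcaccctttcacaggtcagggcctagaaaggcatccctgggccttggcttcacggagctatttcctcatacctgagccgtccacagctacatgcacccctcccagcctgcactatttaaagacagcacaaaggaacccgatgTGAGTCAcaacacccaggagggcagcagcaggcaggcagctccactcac
Serpina1b (chr12:103738140-103738439, minus strand): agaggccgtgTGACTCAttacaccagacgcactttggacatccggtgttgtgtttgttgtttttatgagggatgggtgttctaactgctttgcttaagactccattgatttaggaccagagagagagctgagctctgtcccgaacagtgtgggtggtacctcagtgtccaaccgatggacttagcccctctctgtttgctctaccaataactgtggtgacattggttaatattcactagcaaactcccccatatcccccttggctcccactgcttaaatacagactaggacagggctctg
In F3 and Vtcn1 the letters read TGAGTCA, the same site on the opposite strand. A match is a description of letters, with no test and with counts of 6 windows, and says nothing about binding. The muscle motifs gave little. MEF2 core sites stood in none of the called windows and in 0.557% of all, the CArG box only in that of Prune2 and in 1.63% of all, and AGATAAG, the GATA site, in none and in 3.04% of all.

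The Notch pathway showed no called gene among 20 tested, where the list held receptors, ligands, processing enzymes, cofactors and targets. Its median log2 difference was 0.11. Over all genes 0.299% were called, 7.33% were higher without overlap and 5.63% lower. With so small a share called, the lack of calls in 20 genes is no result about the pathway. Notch1 (chr2:26457903-26516663, minus strand) differed by 0.21 on the log2 scale (SE 0.25, adjusted p 0.952), and its proximal and distal values given above overlapped. Notch3, the receptor of arterial smooth muscle, was the only 1 of the 20 without overlap, at 4.87, 3.51 and 2.95 RPKM against 2.65, 1.81 and 1.63 RPKM (log2 0.75, SE 0.23, adjusted p 0.324). Hey2, a target gene in smooth muscle, was at 18.2, 12.6 and 21.2 against 24.3, 22.7 and 19.6 RPKM and overlapped. Heyl, the target at the highest level, was at 38.1, 39.3 and 58.1 against 33.8, 53.4 and 58.0 RPKM. Maml2, a coactivator of the complex, was at 16.5, 20.1 and 15.9 against 27.8, 27.4 and 19.6 RPKM, and its log2 difference of -0.49 (SE 0.21) did not pass (adjusted p 0.640).

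TGGGAA, the core of the RBPJ site, stood on either strand in 14 of 35 windows of genes called higher and in 2 of 6 of genes called lower, against 25.6% of all windows, and 3 of the 14 are overlapping windows of Gm17197 with 1 site, as are those of Hand2 and Gm28063. ACAANG, the core that SOX factors bind, stood in 10 of 35 and 2 of 6, against 41.2% of all. CACGTG, the E box of Hey and Hes type, stood in 2 of 35 and 0 of 6, against 7.15% of all, and the 2 are overlapping windows of Ivns1abp with 1 site. None of these shares was tested. The windows of 3 genes of different sets are shown because they hold the RBPJ core letters, which are in capitals, the growth factor Ptn, the troponin gene Tnnc1 and the transcription factor gene Hand2.
Ptn (chr6:36810130-36810429, minus strand): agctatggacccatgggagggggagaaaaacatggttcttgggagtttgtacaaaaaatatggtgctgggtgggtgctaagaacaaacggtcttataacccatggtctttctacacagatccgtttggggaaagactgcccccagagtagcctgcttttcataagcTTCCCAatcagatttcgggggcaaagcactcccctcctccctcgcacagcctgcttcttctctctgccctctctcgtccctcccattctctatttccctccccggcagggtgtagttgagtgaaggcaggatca
Tnnc1 (chr14:31208062-31208361, plus strand): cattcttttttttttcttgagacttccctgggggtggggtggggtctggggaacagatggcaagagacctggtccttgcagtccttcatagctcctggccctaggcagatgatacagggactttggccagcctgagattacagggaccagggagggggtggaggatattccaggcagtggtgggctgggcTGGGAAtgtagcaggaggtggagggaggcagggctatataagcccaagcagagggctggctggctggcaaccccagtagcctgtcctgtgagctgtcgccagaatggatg
Hand2 (chr8:57320733-57321032, plus strand): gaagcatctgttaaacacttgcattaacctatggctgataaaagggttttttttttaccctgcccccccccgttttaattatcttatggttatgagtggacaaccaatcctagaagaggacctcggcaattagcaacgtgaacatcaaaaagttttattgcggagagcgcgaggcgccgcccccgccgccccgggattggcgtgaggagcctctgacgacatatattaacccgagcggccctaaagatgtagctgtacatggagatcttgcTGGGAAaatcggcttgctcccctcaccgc
In Ptn the letters read TTCCCA, the core on the opposite strand.

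The Hox, neural crest and elastic fibre lists held genes of higher distal than proximal values, none of which passed the test. All 5 Hox genes of groups 1 to 5 that were tested, which encode transcription factors of head-to-tail position, had lower proximal than distal values without overlap. Over all genes 5.63% were lower without overlap. The median log2 difference of the 5 was -1.01, and none was called. Hoxa2, which patterns the second branchial arch, was at 4.26, 5.31 and 4.51 RPKM against 7.91, 12.4 and 10.3 RPKM (log2 -1.03, SE 0.20, adjusted p 0.0724). Hoxb4 was at 0.549, 0.707 and 0.950 against 2.87, 2.02 and 3.12 RPKM (adjusted p 0.0794). Hoxb4 had passed the filter through distal tissue alone, which fixed its lack of overlap. Dlx5, a homeobox gene of neural crest mesenchyme, was at 1.02, 1.27 and 0.335 against 2.33, 4.39 and 3.92 RPKM (adjusted p 0.182). It was the only 1 of 8 neural crest genes tested that was lower without overlap, against 5.63% of all genes. The list was mixed, with 5 fitted differences below 0 and 3 above, up to 1.08. Its median was -0.16.

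Elastic fibre genes gave no call among 20 tested, and their median was -0.24. Of the 20, 6 were lower in proximal tissue without overlap, against 5.63% of all genes. Efemp1, fibulin 3, was at 13.6, 10.4 and 8.27 against 21.5, 53.9 and 26.0 RPKM (log2 -1.52, SE 0.35, adjusted p 0.134). Mfap5, a microfibril glycoprotein, was at 27.0, 26.3 and 25.7 against 44.8, 60.1 and 36.9 RPKM (adjusted p 0.209). Contractile smooth muscle genes other than Des gave no call, and the median of the list with Des was 0.05. Itga8, the integrin alpha 8 chain of smooth muscle, was at 358, 298 and 352 against 405, 519 and 535 RPKM without overlap (log2 -0.53, adjusted p 0.467). Vipr2, a receptor of vasoactive intestinal peptide, was at 0.588, 0.158 and 0.218 against 1.47, 1.63 and 1.67 RPKM (adjusted p 0.0873). Dio2, the deiodinase that activates thyroid hormone, was at 2.28, 3.81 and 4.65 against 11.8, 20.9 and 17.9 RPKM, 4.71-fold higher in distal tissue. It missed the threshold at adjusted p 0.119 and passed it with the mouse block at 0.0336. Dio2 was in the brown fat marker list, of which 3 genes were tested and 0 called. The other 2 were higher in proximal tissue without overlap, against 7.33% of all genes, and the list median was 0.57. The largest difference in that list was that of Cox8b (log2 2.95, adjusted p 0.375), opposite in direction to Dio2. The TGF-beta, BMP, Wnt, matrix protease, proteoglycan and heritable aortopathy lists held no called gene, with 16, 16, 16, 17, 14 and 21 tested. As 0.299% of all genes were called, no call in lists this short is no result about them. In that order 1, 3, 0, 0, 2 and 1 genes were higher without overlap, against 7.33% of all genes. Lower without overlap were 1, 1, 4, 4, 3 and 3, against 5.63%.

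The wildtype libraries were fitted on their own. They had set part of the spread behind the calls, but not the proximal and distal levels compared. Of the 39 genes called higher, 38 were also higher in wildtype proximal than distal tissue, 35 did not overlap and 36 had an unadjusted p under 0.05. Over all genes the shares were 2.46% without overlap and 1.97% at that p in the higher direction. Of the 8 called lower, 8 did not overlap in the same direction and 8 had an unadjusted p under 0.05, against 11.4% and 5.59% of all genes. The 6-library model, which shares no library with the wildtype fit, called 41 genes higher and 6 lower. Of these, 41 and 6 had the same sign in wildtype, 29 and 5 did not overlap, and 37 and 5 had an unadjusted p under 0.05. At an adjusted p under 0.05 the wildtype fit called 5 genes in all, 0.0318% of those tested, of which 4 were among the 47. The count depends on the settings, as it was 0 with the mouse block and 43 when all 12 libraries shared 1 model. It was 0 without wildtype proximal library 1, distal library 1 or distal library 2, 2 without distal library 3, and 5 and 7 without proximal libraries 2 and 3. The exception in sign was Gm22340, which lay at the floor in all 6 wildtype libraries.

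**Figure D5:**
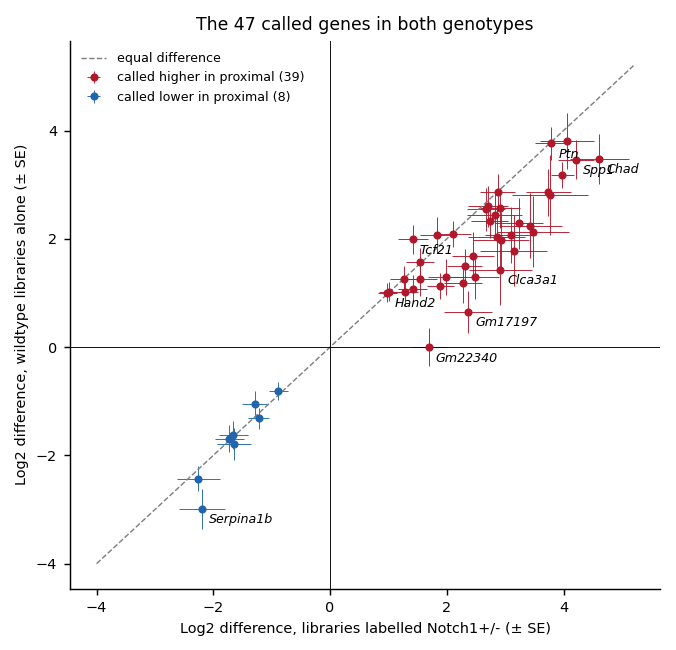
Log2 difference between proximal and distal tissue in the libraries labelled Notch1+/- (x axis) and in wildtype mice, fitted alone (y axis), for the 47 called genes, with bars of 1 SE and a dashed line of equal difference. Gm22340 lies at 0 in wildtype and the other 46 have the same sign in both.

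For the 39 higher genes the median log2 difference was 2.71 for libraries labelled Notch1+/- against 2.04 for wildtype, and 34 of the 39 were larger in the former. The genes were called in the former libraries, so these medians are not independent of the choice of genes. For the 8 lower genes the medians were -1.65 and -1.66. The direct test of whether the location difference depended on genotype called 0 of 15713 genes with limma, and 441 genes, 2.81%, had an unadjusted p under 0.05. Among the 47 called genes, the smallest unadjusted interaction p was 0.00175, of Gm22340. Chad illustrates the size of such differences. Its location difference was 4.61 against 3.48 in wildtype, and the difference of 1.14 had an SE of 0.72 and an adjusted p of 0.9998. Ptn differed by 3.79 and 3.77, and Hand2 by 0.98 and 1.01. Tcf21 was larger in wildtype, 1.99 against 1.42. All 5 Hox genes and all 4 MHC class II genes that did not overlap in the libraries labelled Notch1+/- did not overlap in wildtype in the same direction. In the sarcomere list 7 genes did not overlap in wildtype against 17 in the libraries labelled Notch1+/-. The share of all genes higher without overlap was also smaller in wildtype, 2.46% against 7.33%, so these counts do not show a genotype difference. Cardiomyocyte sums were 220.0 to 1533.7 in proximal and 20.6 to 296.8 in distal wildtype libraries.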

How the data were processed

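Libraries were made from 10 ng of total RNA with an amplification kit that does not mark strand and read as 50-base pairs, per the labels' protocols. The submitters' processing notes name TopHat2 2.1.0, Bowtie2, R 3.2.2 and the build mm10. Which tool and annotation gave the counts is not given in the sources used here. RPKM is the deposited unit: the authors gave 1 RPKM value per gene and library, with values under each library's threshold for 10 reads replaced by 0.1578 RPKM, per the file headers. A copy of this table and a correlation matrix, 24 columns, were not used. Replicates of a group are separate mice.

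All 12 libraries entered 1 limma 3.58.1 model (R 4.3.3) of 4 group means on log2(RPKM + 0.5), with a variance trend, a 2-sided test and Benjamini-Hochberg adjustment over 15713 genes. Fitted log2 differences are on that scale, so they are compressed for weakly expressed genes, and folds are ratios of mean RPKM. A ratio against libraries at the floor is a lower bound, with each replaced value set to its library's threshold or the floor, whichever is higher. The wildtype comparison used its 6 libraries alone. The deposited sample sheet gives proximal and distal libraries of the same number the same mouse, in 6 of 6 mice, and their deviations from the group means correlated at 0.131, 0.155 and 0.238 in the libraries labelled Notch1+/- and at 0.193, 0.0885 and 0.132 in wildtype. Reads behind a value were worked back from RPKM and GENCODE exon lengths, and promoter windows are RefSeq's.

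The comparison, its genes and the gene lists were chosen with earlier results of these data known. Genes were picked for naming when called, in the Notch pathway, or an extreme or the member of highest level of a list. Genes of highest mean RPKM or smallest interaction p were picked too, and exceptions are stated. All called genes are described in the text, but not all others that were picked. Alternatives were other pseudocounts, no filter, 3 other scalings, the mouse block, no variance trend, fewer or more libraries in the model and leaving out each library. Low-expressed genes rest on few reads, and RPKM values hold no sampling error of their own.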

Additional observations from a re-analysis of the deposited data

Results flagged for a closer look

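Of 147 named genes, 6 moved in opposite directions in the 2 genotypes, up from distal to proximal tissue in all 3 mice of one and down in all 3 of the other. All 6 were named for their small interaction p, which selects such genes. The fitted difference of the location differences, Notch1+/- minus wildtype, was 2.08 for Ext2, an enzyme of heparan sulfate synthesis, and 1.55 for Krtcap2, an endoplasmic reticulum protein. It was 1.43 for Gm15616, -1.55 for Gm15890, 1.84 for Gm24135 and 3.42 for Gm26135. The limma adjusted p was 0.9998 for each, so none passed the test of the difference. Ext2 was at 14.7 against 7.21 RPKM (means of 3 proximal and 3 distal libraries labelled Notch1+/-) and at 9.36 against 19.3 RPKM in wildtype. Groups of 3 were not searched for outlying libraries.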

How the results depend on the processing

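The count of 47 calls between proximal and distal tissue in the libraries labelled Notch1+/- was 33 to 59 under the 9 other settings, namely 37 and 49 with pseudocounts 0.1 and 1, 44 without the filter, 34 with RPKM rescaled to a constant sum, 56 by median of ratios, 58 by quantile normalization, 33 with the mouse as replicate block, 59 without the variance trend and 47 in a model of the 6 libraries, of which 33 were among the main 47 and 14 were not. Leaving out 1 library gave 14 to 26. No called gene changed sign under any of these. With the replicate block the wildtype count fell from 5 to 0 and the interaction stayed at 0. The wildtype count was also 8 with pseudocount 1, 0 without the filter, 9 at constant sum, 10 by median of ratios and by quantile normalization, 43 with all 12 libraries in 1 model, and 0 to 7 without 1 library; at 0, 1339 genes had an unadjusted p under 0.05 with the block and 1695 without the filter. The interaction count was 0 throughout. Of the genes not called, Heyl ranged from -0.324 to 0.0612 and Myom1 from -0.401 to 0.0400 without 1 library. Some passed under an alternative: Dio2 with the block and in the 6-library model, Emcn with pseudocount 1, Hoxa2 by median of ratios, Hoxa2, Mfap5 and Emcn by quantile normalization, and Hoxb4, Vipr2, Emcn and Hapln1 without the trend. The causes were not tested. With 3 mice per location, small differences and genes near the floor are beyond these data.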
